A study of Mus musculus with 4 samples.

Results

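The Hox genes are described here in tumour cells, keratinocytes, fibroblasts and endothelium of mouse skin tumours. They were taken as every gene whose symbol is Hox, a cluster letter from a to d and a number, which gave 39 genes (40 identifiers, since Hoxd4 has 2) of the 31054 features counted in each of 4 single-cell RNA libraries. All mice were of the LKPR line, which carries Lgr5CreER, p53fl/fl and Rosa26-YFP+/+ among its alleles: tamoxifen-activated Cre, driven by the Lgr5 promoter in hair follicle stem cells, switches on a yellow fluorescent reporter (YFP) and deletes p53, the gene that encodes a tumour suppressor. Tamoxifen was given as 4 daily injections of 2.5 mg from postnatal day 28, and tumours were seen 7 to 9 weeks later. The NP137 group received this antibody against netrin-1, a secreted guidance factor, in doses of 10 mg/kg at intervals of 2 days, starting 4 weeks after tamoxifen, and the other group was the control. Each group has 2 libraries, made with 10x 3′ chemistry from sorted live cells. The labels do not say whether the libraries are separate animals, so the p-values measure the spread between these libraries, and they do not give the body site of the tumours.

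Hox genes encode homeodomain transcription factors and lie in 4 clusters. Within a cluster, the genes of low number are used toward the head and those of high number toward the tail, and the last groups of the Hoxa and Hoxd clusters also pattern the far limb. Cells of adult skin, dermal fibroblasts above all, keep part of this pattern, so that the set of Hox genes in a cell carries a record of where on the body it arose.

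The cells used numbered 10482 in control 1, 5301 in control 2, 14205 in NP137 1 and 14513 in NP137 2. They formed 31 clusters, drawn without the Hox genes. Tumour cells were the 5 clusters with a YFP UMI (unique molecular identifier, a tag counted once per captured RNA molecule) in 72.9 to 94.5% of cells, against at most 35.1% in any other cluster. The other classes were named by markers and are called fibroblast-like, endothelial-like, keratinocyte-like and macrophage-like. Of the tumour cells, 3959 of 4728 in control 1 were in the cluster led by Mme, 1074 of 1135 in control 2 in that led by Mgp, 2930 of 3135 in NP137 1 in that led by Wfdc2, and 799 of 918 in NP137 2 in that led by Tchh. By the marker lists alone the clusters led by Mme and by Mgp would have been named fibroblast-like, which bears on the tumour cells of both controls in the comparison with fibroblast-like cells. Different clusters thus hold most tumour cells in each library, and the tumour cells' summed level of 13 keratinocyte markers was 2519 and 813 counts per 1000000 UMIs (CPM) in the controls against 19431 and 21855 CPM in the NP137 libraries (1 of the 13 at 0 in NP137 2); its part in the NP137 comparison was not tested. Of the keratinocyte-like cells, 27.3, 17.5, 30.0 and 51.1% in control 1, control 2, NP137 1 and NP137 2 also held a YFP UMI. In macrophage-like cells these shares were 17.2, 9.84, 9.01 and 3.05%. The part of tumour cells in the keratinocyte-like class was not tested.

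The library labelled NP137 1 held 2 kinds of cells by their sex-linked transcripts. Xist, the RNA of the inactive X of female cells, was found without Y-linked transcripts in 27.7% of its cells, and Y-linked transcripts without Xist in 16.7% (16.5 and 5.40% when 2 UMIs were required). The labels do not say whether it pools animals. By these transcripts it held cells of both sexes, so its levels are averages over both kinds of cells, and it counts as 1 library. In control 1 these shares were 64.4% and 0.0191%, in control 2 0.302% and 51.4%, and in NP137 2 68.0% and 0 of 14513 cells, which allows up to 0.0207%. Control 2 was thus the only library with the Y-linked kind and hardly any of the Xist kind. Its cells and those of control 1 were of opposite sex. The part of sex in the differences between libraries was not tested. Pairs of libraries shared 19 to 77 cell barcodes.

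A level below is the CPM of all UMIs summed over a class in a library, with an exact Poisson interval of 95% that covers counting error only. The 3′ UMI counts are per captured molecule and not per length, and capture can differ between genes. A Hox gene is called above background where it had at least 10 UMIs and its lower bound exceeded the upper bound in macrophage-like cells of the same library. In those cells all Hox genes together reached 40.0, 15.5, 27.6 and 18.2 CPM in control 1, control 2, NP137 1 and NP137 2, the order kept throughout for series of 4 values.

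The 39 genes are 11 of the Hoxa cluster on chromosome 6, 10 of the Hoxb cluster on chromosome 11, 9 of the Hoxc cluster on chromosome 15 and 9 of the Hoxd cluster on chromosome 2. The results turn mainly on Hoxb9 (chr11:96271457-96276595), Hoxb2 (chr11:96350525-96354012), Hoxa3 (chr6:52169062-52213336) and Hoxa5 (chr6:52201754-52204587) in tumour cells, Hoxc8 (chr15:102990607-102994111) in fibroblast-like cells, Hoxd8 (chr2:74704615-74707933), Hoxd9 (chr2:74697727-74700208) and Hoxd10 (chr2:74691924-74695105) in endothelium, and Hoxc13 (chr15:102921103-102928814) in keratinocyte-like cells, in GENCODE M21 coordinates of mm10. The exons of 9 Hox genes overlap another gene's exons on the same strand (Hoxa2, Hoxa3, Hoxc10, Hoxd10 and Hoxd11 among them). Reads of the shared stretches may not be told apart from the neighbour's. Exons of 10 Hox genes overlap an antisense gene's (Hoxb2 and Hoxa7 among them).

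The promoters of 22 of the 39 genes matched the RefSeq table (GRCm38.p6). Shown are the 120 bases before the RefSeq start of genes of the patterns found below. For Hoxd9 and Hoxd10 that start differs from the GENCODE one, so that the Hoxd9 stretch runs into the gene as given above and the Hoxd10 stretch ends short of it. The genes are Hoxb8 of the Hoxb-rich tumour cells, Hoxa5 of the Hoxa-rich ones, and the Hoxd8, Hoxd9 and Hoxd10 trio of endothelium. Capitals mark a match, on either strand, to TGATNNAT (the joint motif of PBX and HOX proteins) or TATAAA (the TATA box), which do not overlap each other here.
Hoxb8, chr11:96281785-96281904, plus strand: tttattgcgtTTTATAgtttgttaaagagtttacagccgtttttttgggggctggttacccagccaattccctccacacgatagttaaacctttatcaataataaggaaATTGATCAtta
Hoxa5, chr6:52204588-52204707, minus strand: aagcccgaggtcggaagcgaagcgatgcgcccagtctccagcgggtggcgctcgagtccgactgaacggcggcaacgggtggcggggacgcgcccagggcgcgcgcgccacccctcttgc
Hoxd8, chr2:74704495-74704614, plus strand: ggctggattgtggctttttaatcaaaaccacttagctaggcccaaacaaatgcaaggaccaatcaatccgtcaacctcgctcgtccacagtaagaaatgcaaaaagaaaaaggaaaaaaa
Hoxd9, chr2:74697643-74697762, plus strand: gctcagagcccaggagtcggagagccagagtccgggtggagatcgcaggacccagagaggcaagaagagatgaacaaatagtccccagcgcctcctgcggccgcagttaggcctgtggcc
Hoxd10, chr2:74691771-74691890, plus strand: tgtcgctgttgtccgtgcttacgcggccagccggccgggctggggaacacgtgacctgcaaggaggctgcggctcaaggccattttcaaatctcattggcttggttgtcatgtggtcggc
The G and C content was 35% for Hoxb8, 74.2% for Hoxa5, 40.8% for Hoxd8, 63.3% for Hoxd9 and 60.8% for Hoxd10, so the 3 endothelial neighbours do not share a base composition. In the 250 bases before the start, TGATNNAT was found in 4 of the 24 Hox windows (16.7%) and in 7.68% of all 32851 windows. TATAAA was found in 4 of 24 Hox windows and in 12.4% of all. The median ratio of observed to expected CpG was 0.721 in Hox windows and 0.374 in all.

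Tumour cells of 3 libraries were rich in the Hoxb cluster, and those of control 2 were not. Hoxb genes made up 57.7% of all Hox UMIs in control 1 (interval 56.8 to 58.5%, exact binomial, counting error only), 88.0% in NP137 1 (87.1 to 88.8%) and 79.4% in NP137 2 (78.0 to 80.7%), but 3.69% in control 2 (3.06 to 4.41%). In control 2, Hoxa genes made up 88.2% of the Hox UMIs, against 19.8% in control 1, 7.28% in NP137 1 and 14.8% in NP137 2. Hoxc genes took 22.4% in control 1 and 4.52 to 7.95% in the other libraries, and Hoxd genes 0.0997 to 0.205% in each. The tumour cells of the 2 controls therefore differed from each other more than control 1 differed from either NP137 library in the Hoxb share.

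**Figure D1:**
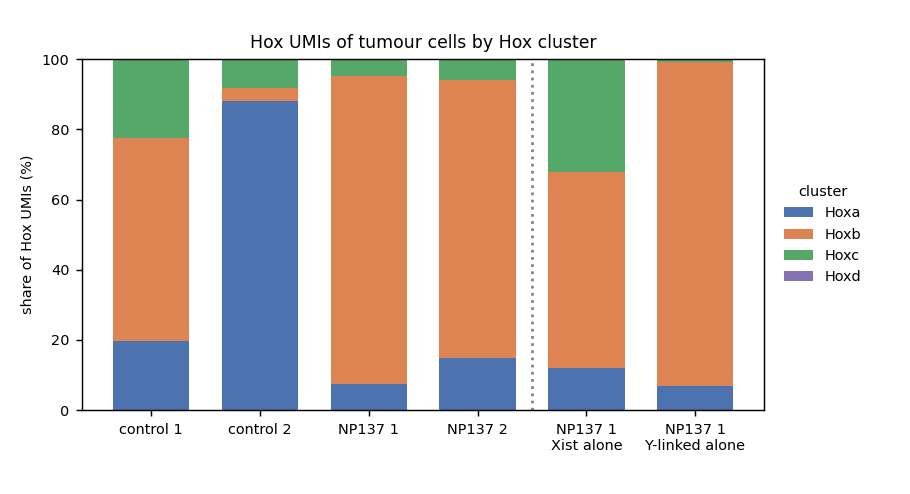
Share of the summed Hox UMIs of tumour cells in each Hox cluster (vertical axis, %), for the 4 libraries and for the NP137 1 cells with Xist alone or Y-linked transcripts alone. The Hoxb share is 3.69% in control 2 and 57.7 to 88.0% in the other libraries.

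Hoxb9, a gene of the trunk that is the last of the Hoxb genes seen here in quantity, had the highest mean level in tumour cells. It stood at 42.9 CPM in control 1 (2169 UMIs), 0.22 CPM in control 2 (7 UMIs), 49.2 CPM in NP137 1 (1387 UMIs) and 35.2 CPM in NP137 2 (623 UMIs). Control 2 alone was low, and the control and NP137 values overlapped. Macrophage-like cells of the same libraries held 4.69, 0, 1.60 and 0.42 CPM of Hoxb9. With each cell thinned to 2000 UMIs, 8.41, 0.0890, 9.62 and 5.82% of tumour cells had a Hoxb9 UMI, and 1.06, 0, 0.334 and 0.0527% of macrophage-like cells did (0 of 297 in control 2, which allows up to 1.01%). Unthinned, the tumour shares were 26.8, 0.441, 30.3 and 37.6%, at median depths of 8262, 27610, 8626 and 18530 UMIs per cell.

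The rest of the cluster went with Hoxb9. Hoxb2, which patterns the hindbrain in the embryo, was at 22.5, 1.09, 38.9 and 34.3 CPM. Hoxb7, another trunk gene, was at 22.7, 0.09, 32.6 and 21.6 CPM, and Hoxb8 at 17.7, 0.16, 18.9 and 18.3 CPM. For each of these genes the interval of control 2 lay below those of the other libraries. Hoxb3, Hoxb4, Hoxb5 and Hoxb6 were likewise at 1.09 CPM or less in control 2 and between 3.98 and 19.0 CPM elsewhere.

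The 3′ Hoxa genes had the reverse order. Hoxa5, known for its part in lung and shoulder girdle patterning, was at 19.9 CPM in control 1, 31.7 CPM in control 2, 2.02 CPM in NP137 1 and 5.59 CPM in NP137 2. Hoxa3, which patterns the pharyngeal arches, was at 12.2, 30.4, 5.54 and 10.5 CPM. For both genes the 2 controls lay above the 2 NP137 libraries, as for 40.6% of all genes tested there, with control 2 the highest. Hoxc8, a gene of the lower thorax, had a high value in control 1 alone, at 28.4 CPM against 3.26, 3.83 and 0.96 CPM, and Hoxc6 followed it at 21.5 CPM against 3.48, 2.77 and 5.14 CPM.

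Above background in tumour cells were 19 of the 39 genes in control 1, 6 in control 2, 10 in NP137 1 and 16 in NP137 2. Genes of groups 9 to 13 gave 17.5, 0.694, 23.9 and 18.2% of the Hox UMIs, with Hoxb9 the main gene in control 1, NP137 1 and NP137 2, and Hoxc9 at 4.81 CPM in control 1. Over all classes, 10 Hox genes stayed under 10 UMIs in every library (Hoxa13, Hoxb1, Hoxb13, Hoxc11, Hoxc12, Hoxd1, Hoxd3, Hoxd4, Hoxd12 and Hoxd13), 3 of them at 0 (Hoxc12, Hoxd12 and Hoxd13), and were not detectable at this depth or nearly so. Of groups 10 to 13 in tumour cells, Hoxa10 alone reached 10 UMIs in a library, with 13 UMIs in control 1 (0.26 CPM), and 1, 0 and 3 in the others.

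**Figure D2:**
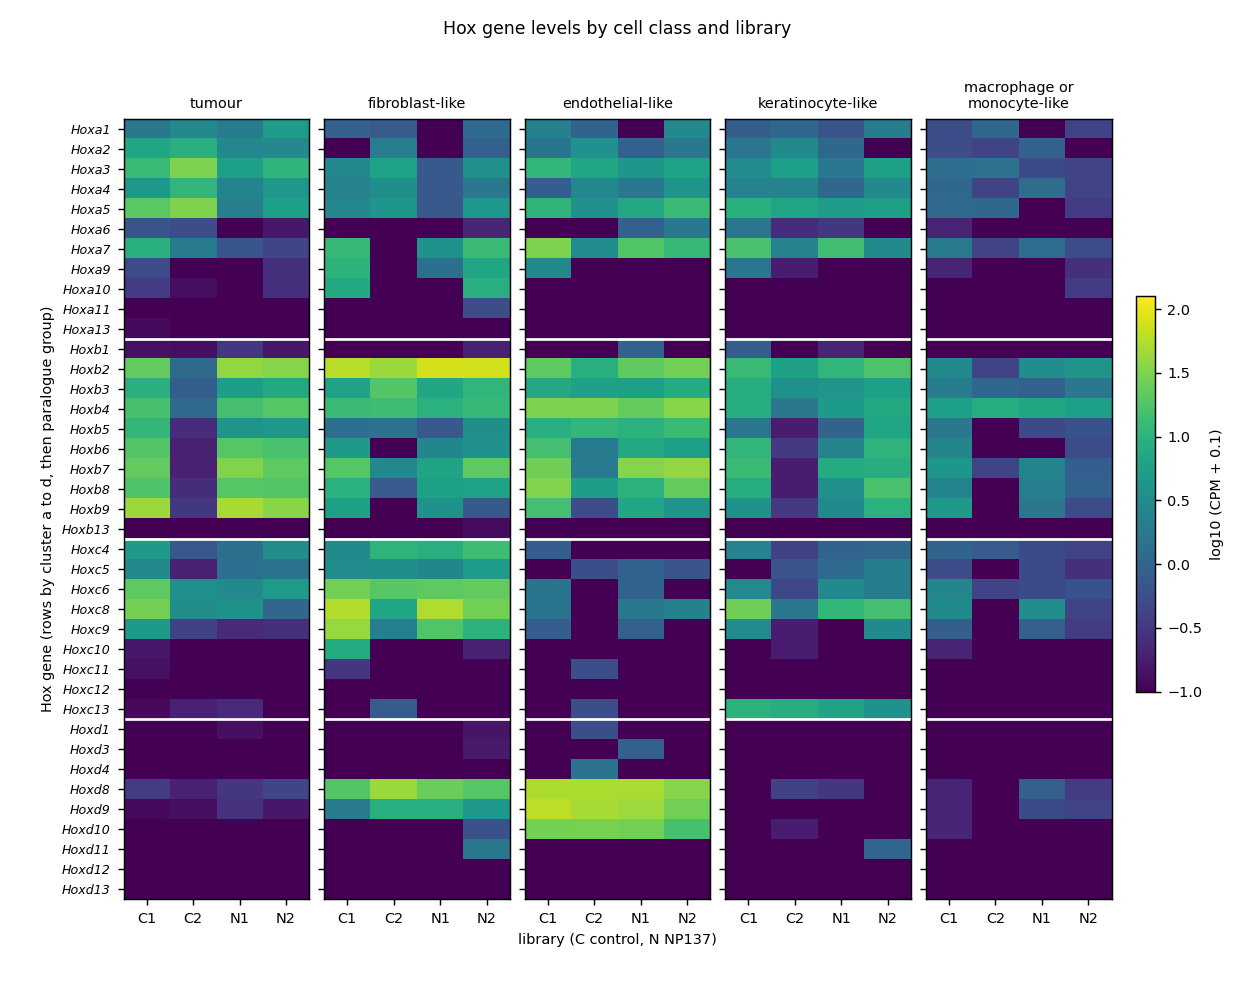
Level of each of the 39 Hox genes (rows, by cluster and group) in 5 cell classes of 4 libraries (columns), as log10 of CPM plus 0.1. The Hoxb2 to Hoxb9 rows of tumour cells are dark in control 2 and bright in the other libraries, and the Hoxd8, Hoxd9 and Hoxd10 rows are bright in the endothelial-like columns.

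The Hox pattern also differed between tumour clusters within a library. In control 1, Hoxb9 was at 48.8 CPM in the 3959 cells of the Mme cluster and 3.43 CPM in the 358 cells of the Wfdc2 cluster, a ratio of 0.0702 (0.0415 to 0.111, exact binomial, counting error only). Hoxa5 went the same way, from 23.6 to 1.52 CPM (ratio 0.0646, 0.0278 to 0.128). Hoxb2 went the other way, from 20.5 to 40.6 CPM (ratio 1.98, 1.69 to 2.31), and Hoxc8 stood at 28.6 and 35.8 CPM. The Wfdc2 cluster of control 1 thus kept the Hoxc8 level of its library and lacked most of its Hoxb9. In NP137 1 the Wfdc2 cluster had 49.0 CPM of Hoxb9 and 3.72 CPM of Hoxc8, so the cluster's name did not fix its Hox pattern. The Mgp cluster of control 2 had 0.0651 CPM of Hoxb9 and 32.8 CPM of Hoxa5.

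The tumour cells of NP137 1 differed in Hox pattern when divided by sex-linked transcripts, a division that uses no Hox value. Among the 1146 tumour cells with Y-linked transcripts alone, Hoxb genes made up 92.4% of 2818 Hox UMIs (91.4 to 93.4%) and Hoxc genes 0.639% (0.379 to 1.009%). Among the 485 with Xist alone, Hoxb made up 55.7% of 553 Hox UMIs (51.4 to 59.9%) and Hoxc 32.0% (28.1 to 36.1%). The intervals of the 2 kinds of cell do not overlap for either cluster. Nor did they when 2 UMIs were required, with Hoxb at 92.2 and 51.9% and Hoxc at 0.846 and 34.4%.

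Hoxc8 gave the widest gap, at 19.7 CPM with Xist (81 UMIs) and 0.0808 CPM with Y-linked transcripts (1 UMI), a ratio of 0.00410 (0.000102 to 0.0235). Hoxc6 was at 10.2 and 0.889 CPM. Hoxb9 was at 15.3 CPM with Xist and 56.7 CPM with Y-linked transcripts (ratio 3.69, 2.85 to 4.86), and Hoxb6, another trunk gene, at 1.71 and 22.5 CPM (ratio 13.2, 6.33 to 33.2). Hoxb2 and Hoxa3 differed less, with ratios of 1.38 (1.13 to 1.69) and 1.19 (0.705 to 2.09). The Hoxb2 and Hoxa3 levels were thus near in cells whose Hoxc8 levels were far apart. As a single library, NP137 1 gives no test of this difference, and the intervals cover counting error only.

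**Figure D3:**
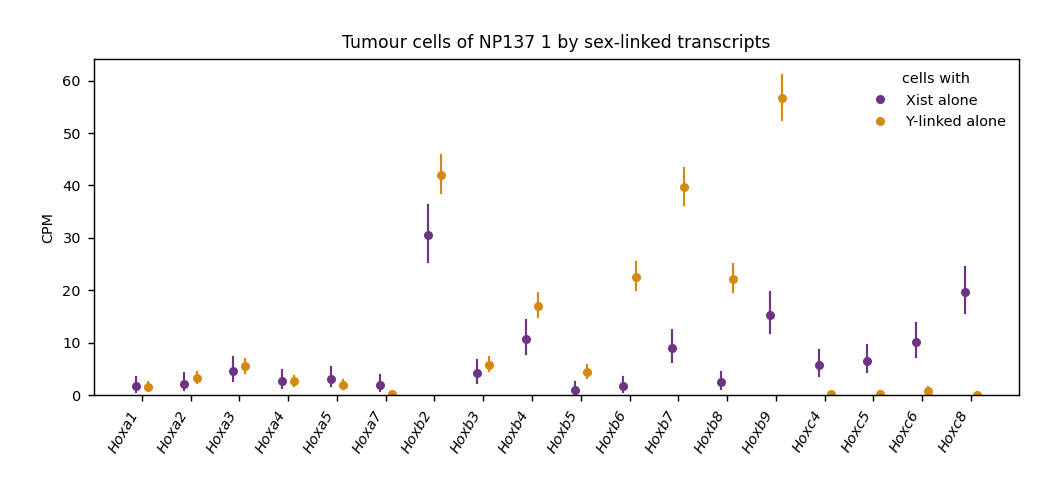
Level (CPM) of Hoxa, Hoxb and Hoxc genes with at least 10 UMIs in tumour cells of NP137 1, in 485 cells with Xist alone and 1146 cells with Y-linked transcripts alone; bars are exact Poisson 95% intervals. Hoxc8 is at 19.7 CPM in the first kind and 0.0808 CPM in the second.

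In tumour cells no Hox gene passed the test of NP137 against control across all genes. On simulated data this comparison recovered 0% of genes set to a log2 difference of 1 and 30.3% at 2, so differences of these sizes could be missed. Of the 40 identifiers, 19 passed the filter on low counts, and 0 of them passed a Benjamini-Hochberg adjusted p of 0.05 in the quasi-likelihood test of edgeR, where 0.00710% of all genes passed in either direction (1 of 14085). At an unadjusted p under 0.05 there were 4 (Hoxa2, Hoxa5, Hoxa6 and Hoxa7, all lower with NP137), where 23.5% of all genes passed, and DESeq2 called 2 (Hoxa5 and Hoxa7, lower), where it called 8.82% of all genes lower. The log2 difference, NP137 minus control, was -2.47 for Hoxa5 (SE 0.628, adjusted p = 0.118 by edgeR), -3.35 for Hoxa7 (SE 1.02, adjusted p = 0.146 by edgeR) and 1.17 for Hoxb9 (SE 1.78, adjusted p = 0.736 by edgeR).

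The 2 NP137 libraries lay above both controls for 2 of the 19 (Hoxb2 and Hoxb8; 18.0% of all genes) and below both for 5 (Hoxa2, Hoxa3, Hoxa5, Hoxa6 and Hoxa7; 40.6% of all genes). The median log2 difference was 0.05 over the Hox genes tested and -0.03 over all genes tested. Without control 1, 6 Hoxb genes were called (higher with NP137: Hoxb2, Hoxb4, Hoxb6, Hoxb7, Hoxb8 and Hoxb9), as were 494 genes of any kind in either direction, against the lone control 2, which is assumed to vary like the other group. Without NP137 1, as without control 2 or NP137 2, the count was 0.

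Fibroblast-like cells (501, 63, 376 and 3069 cells) leave out unnamed cell clusters with fibroblast markers, led by Gzme and by Coch. With those clusters they would number 929, 233, 2824 and 3682. The fibroblast-like cells used all 4 Hox clusters. Hoxb2 had the highest mean level, at 59.1, 42.9, 77.9 and 77.7 CPM, with both NP137 libraries above both controls, as for 18.4% of all genes tested there. Hoxc8 followed, at 54.5, 6.81, 53.7 and 27.3 CPM, lowest in control 2, although not low there in the unnamed Coch cluster described at the end. Hoxd8, a trunk gene with at most 13 UMIs in the tumour cells of a library, was at 18.5, 42.9, 25.6 and 19.1 CPM, highest in control 2. Hoxc6 varied least of the leading genes, from 19.8 to 28.1 CPM. Hoxb7 was at 18.9, 2.72, 6.39 and 21.1 CPM.

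The 5′ genes of the Hoxa and Hoxc clusters, which mark the tail end and the limbs in the embryo, set the libraries apart. Hoxa10 was at 7.70 CPM in control 1 (37 UMIs) and 8.62 CPM in NP137 2 (377 UMIs), with 0 UMIs in control 2 and in NP137 1. Hoxc10, a gene of the lumbar level and hindlimb, was at 7.91 CPM in control 1 (38 UMIs), 0.09 CPM in NP137 2 (4 UMIs) and 0 UMIs in the other libraries. A count of 0 allows up to 2.04 CPM in control 2 and 1.92 CPM in NP137 1 (3 counts of the class total), so in these libraries a level like that of control 1 was not seen, while lower levels were not detectable.

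Hoxa7 and Hoxa9 followed Hoxa10. Hoxa7 was at 11.9, 0, 3.83 and 12.8 CPM, and Hoxa9 at 9.99, 0, 1.28 and 6.82 CPM. Control 1 and NP137 2 were thus high for all 3 of these genes, and control 2 had no UMI of any. Hoxc9, of the lower trunk, was highest in control 1, at 42.0 CPM against 2.04, 17.9 and 10.0 CPM. Hoxd11 and Hoxa11, genes of the forearm and lower leg in the limb bud, were found in NP137 2 alone, with 67 UMIs (1.53 CPM) and 19 UMIs (0.43 CPM), as was Hoxd10 with 22 UMIs (0.50 CPM). The class floor of 0.0686 CPM in NP137 2 against 0.624 to 2.04 CPM in the other libraries means that the Hoxd11 level of NP137 2 was detectable in control 1 too, and the Hoxa11 and Hoxd10 levels in none of the others. Hoxa2 (36 UMIs) and Hoxb6 (156 UMIs) were above background in NP137 2 too, while Hoxa2 had 0 UMIs in control 1 and NP137 1, and Hoxb6 had 0 in control 2.

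Tbx5, the T-box factor of the forelimb, had 10, 0, 1 and 178 UMIs in these fibroblast-like cells (4.07 CPM in NP137 2). Pitx1, a homeodomain factor of the hindlimb, was at 4.78, 1.36, 11.5 and 0.57 CPM. Pitx1 is also among the leading genes of the Wfdc2 tumour cluster, and in tumour cells too it was highest in NP137 1. NP137 2 was lowest here but not in tumour cells, and the part of tumour RNA in the fibroblast-like values was not tested. Groups 9 to 13 made up 23.9% of the Hox UMIs in control 1 (21.8 to 26.1%), 6.07% in control 2 (3.58 to 9.54%), 12.3% in NP137 1 (9.28 to 15.9%) and 11.8% in NP137 2 (11.3 to 12.4%). Control 1 was above the other libraries beyond counting error, and NP137 1 and NP137 2 did not differ beyond it.

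**Figure D4:**
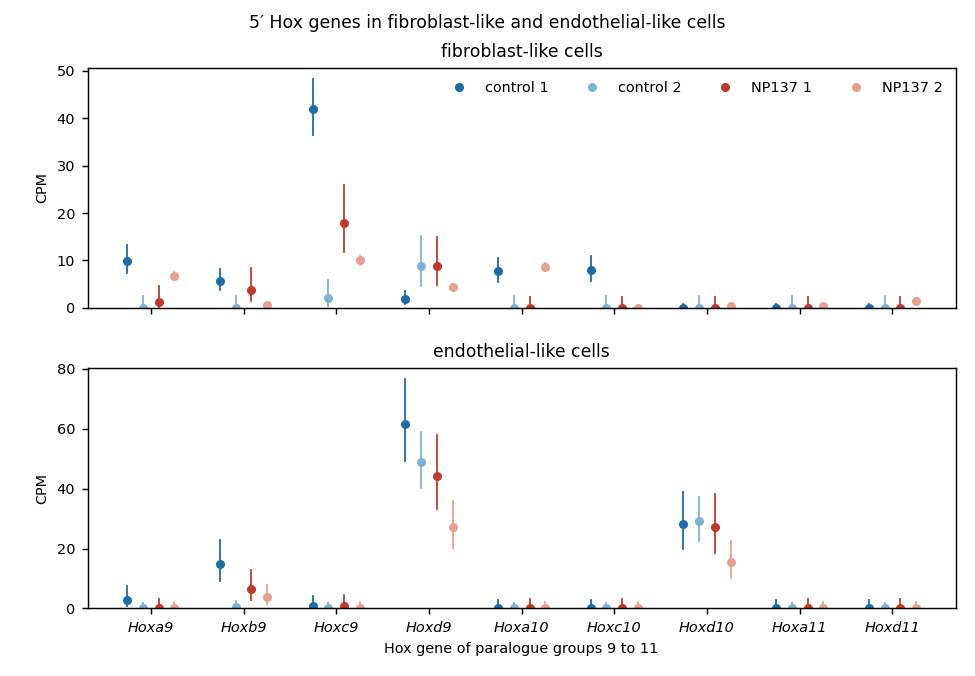
Level (CPM) of 9 genes of groups 9 to 11 in fibroblast-like and endothelial-like cells of the 4 libraries; bars are exact Poisson 95% intervals. Hoxa10 shows in fibroblast-like cells of control 1 and NP137 2 and Hoxc10 in those of control 1, while Hoxd9 and Hoxd10 show in the endothelial-like cells of every library.

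Endothelial-like cells (290, 294, 472 and 255 cells) had the highest Hoxd share of the 4 classes. They join a cell cluster led by Plvap and a smaller one led by Ccl21a (47, 12, 63 and 22 cells). The lymphatic markers Lyve1 and Prox1 are among the leading genes of the smaller one. The part of this mix in the differences between libraries was not tested. Hoxd8 was at 52.8, 52.1, 50.1 and 34.3 CPM, Hoxd9 at 61.7, 49.0, 44.3 and 27.1 CPM, and Hoxd10 at 28.2, 29.2, 27.1 and 15.5 CPM. NP137 2 was the lowest for all 3, and both NP137 libraries lay below both controls, as for 25.2% of all genes tested there. Hoxd genes made up 38.9, 59.6, 43.8 and 27.97% of the Hox UMIs, Hoxb genes 43.2, 30.4, 42.9 and 56.3%, and Hoxc genes 1.22, 0.609, 1.47 and 1.006%.

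Among the Hoxb genes of endothelium, Hoxb4 was at 31.2, 31.9, 23.0 and 34.8 CPM, and so was not low in control 2. Hoxb2 was at 21.5, 8.98, 22.2 and 27.1 CPM. Hoxb7 was at 26.8, 1.80, 34.5 and 39.2 CPM and Hoxb9 at 14.9, 0.45, 6.57 and 3.87 CPM, both lowest in control 2, the library whose tumour cells also lacked them. Hoxb8, at 32.7, 5.39, 9.85 and 23.2 CPM, and Hoxa7, at 32.0, 3.14, 18.1 and 11.6 CPM, were lowest there as well. The Hoxb9 level of macrophage-like cells (4.69, 0, 1.60 and 0.42 CPM) ran in the same order over the libraries, and its part in the endothelial values was not tested. After thinning to 2000 UMIs, 6.19, 3.40, 3.92 and 4.35% of endothelial-like cells had a Hoxd10 UMI, while 0 of 4271, 1124, 2899 and 876 tumour cells did, which allows up to 0.0702, 0.267, 0.103 and 0.342%.

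Keratinocyte-like cells (278, 1065, 2768 and 88 cells) had the lowest summed Hox level of the 4 classes, at 149, 44.1, 83.2 and 127 CPM. Hoxc13, the hair and nail keratin regulator, was at 9.96 CPM (13 UMIs), 8.40 CPM (112 UMIs), 6.37 CPM (58 UMIs) and 3.77 CPM (4 UMIs). Both NP137 values lay below both controls, as for 30.8% of all genes tested there. The 4 UMIs of NP137 2 are too few to stand above background, and tumour cells had 1, 3, 4 and 0 UMIs of Hoxc13. Hoxc8 was at 26.8, 1.65, 11.3 and 15.1 CPM, Hoxb2 at 12.3, 5.70, 10.8 and 17.0 CPM and Hoxa7 at 16.1, 2.25, 14.0 and 2.83 CPM. Each of these was lowest in control 2, although for Hoxa7 NP137 2 (3 UMIs) was close to it.

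The Hox genes of keratinocyte-like cells in control 2 again leaned to Hoxa, with 47.1% of Hox UMIs in Hoxa and 26.2% in Hoxb, while Hoxb made up 45.4% in control 1, 44.7% in NP137 1 and 63.7% in NP137 2. Hoxb7 was at 13.03, 0.08, 7.91 and 8.48 CPM and Hoxb8 at 8.43, 0.08, 3.52 and 16.0 CPM, so that both were near 0 in control 2. Hoxa2 was above the macrophage-like background in control 2 alone (39 UMIs) and not above the neutrophil-like one, with 0 UMIs in NP137 2. Hoxa3 and Hoxa5, at 5.55 and 6.53 CPM in control 2, were above the macrophage-like background there but not the neutrophil-like one (5.05 CPM for each). Hoxc13 alone exceeded the neutrophil-like background in control 2, and the part of background in its lean to Hoxa was not tested.

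Read across the classes, control 2 had the lowest Hoxb7, Hoxb8 and Hoxb9 level of the 4 libraries in each of the 4 classes. In macrophage-like cells control 2 was lowest as well, with Hoxb7 at 4.26, 0.34, 2.40 and 0.75 CPM. Hoxb8 there was at 2.40, 0, 2.00 and 0.83 CPM and Hoxb9 at 4.69, 0, 1.60 and 0.42 CPM. The part of this background in the other classes was not tested. Hoxb9 was above background in fibroblast-like cells of no library, in endothelial-like cells of control 1 alone and in keratinocyte-like cells of NP137 2 alone. The last rests on 10 UMIs in 88 cells, of which 51.1% held a YFP UMI. In control 2, Hoxb4 was low in tumour cells and at 13.6 CPM in fibroblast-like cells (9.58 to 12.9 CPM in the other libraries). The tumour level there was 1.09 CPM (0.757 to 1.51), below the fibroblast-like one. Hoxb4 was above the macrophage-like background in neither of these classes of control 2. The part of background in the fibroblast-like level was not tested. A higher fibroblast-like level than in the other libraries is not established. In fibroblast-like cells of control 2, Hoxb2 was 39.5-fold its tumour level (25.7 to 61.5, counting interval), against 2.62-, 2.00- and 2.27-fold in the other libraries. Control 2 fibroblast-like cells are 63 cells with 280 Hox UMIs. With tumour cells taken as cells with a YFP UMI outside immune and endothelial clusters, a set that holds some fibroblast-like and keratinocyte-like cells too, the Hoxb2 ratio in control 2 fell to 16.3 (11.6 to 22.8).

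**Figure D5:**
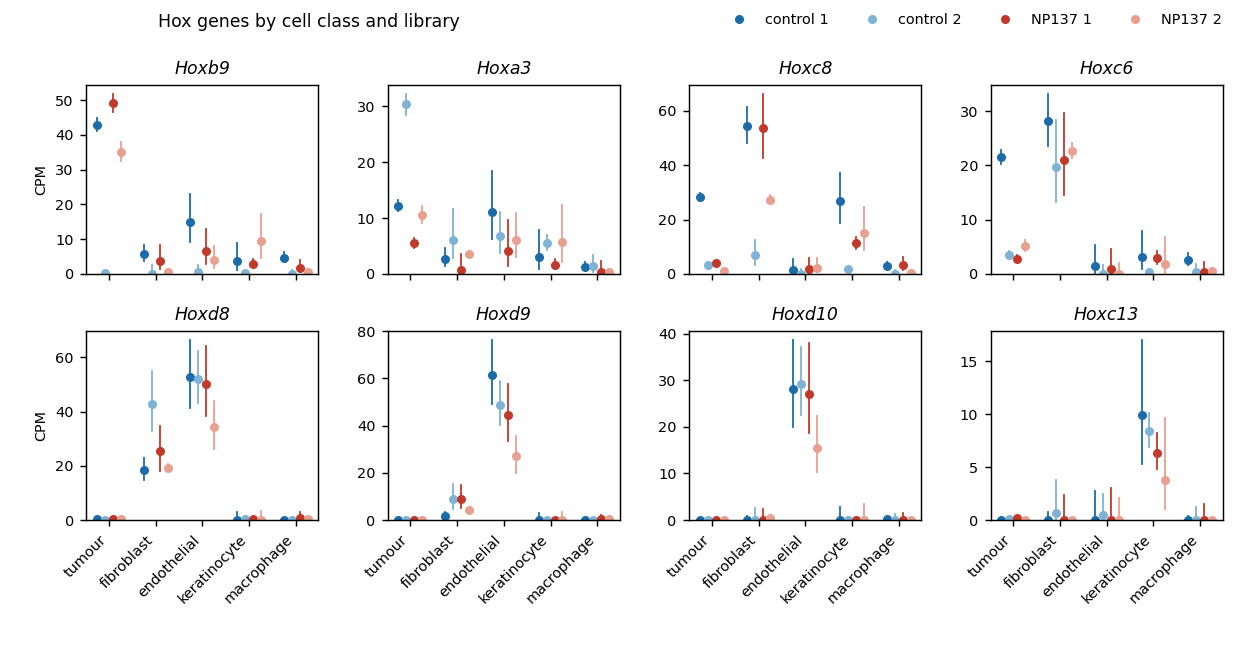
Level (CPM) of 8 Hox genes in 5 cell classes of the 4 libraries; bars are exact Poisson 95% intervals. Hoxd8, Hoxd9 and Hoxd10 are highest in endothelial-like cells and Hoxc13 in keratinocyte-like cells; Hoxb9 is highest in tumour cells of 3 libraries.

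The classes were compared over the libraries, with library as a block. Between fibroblast-like and tumour cells, 21 Hox identifiers were tested, of which 4 were higher in fibroblast-like cells (11.3% of all genes were) and 3 lower (11.2% of all genes). Higher were Hoxd8 (log2 difference 6.88, SE 0.575, adjusted p = 0.00319 by edgeR), Hoxd9 (6.47, SE 0.622, adjusted p = 0.00437 by edgeR), Hoxc9 (4.61, SE 0.812, adjusted p = 0.0182 by edgeR) and Hoxc6 (2.06, SE 0.449, adjusted p = 0.0291 by edgeR). Tumour cells had 13, 3, 6 and 6 UMIs of Hoxd8 and 1, 1, 5 and 1 of Hoxd9, so these sizes are poorly bounded. The CPM ratio for Hoxd8 was 71.95 (40.0 to 140), 460 (151 to 2291), 120 (50.5 to 346) and 56.5 (25.9 to 155). Against cells with a YFP UMI in place of the tumour clusters it fell to 17.9 (12.5 to 26.1), 59.9 (36.9 to 100.3), 27.4 (16.65 to 45.6) and 8.44 (6.29 to 11.6).

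Lower in fibroblast-like cells were Hoxb9 (-4.07, SE 0.653, adjusted p = 0.0142 by edgeR), Hoxb6 (-2.22, SE 0.321, adjusted p = 0.0104 by edgeR) and Hoxa3 (-2.01, SE 0.302, adjusted p = 0.0113 by edgeR). Hoxa3 had 0.222, 0.202, 0.115 and 0.333 of its tumour CPM in the fibroblast-like cells, lower in 4 of 4 libraries. For Hoxb9 the ratio was 0.131, 0.0778 and 0.0189 in control 1, NP137 1 and NP137 2, and in control 2 both classes were near 0. Without NP137 1 the count fell from 7 to 3 (Hoxd8, Hoxd9 and Hoxa3): Hoxb9, Hoxb6 and Hoxc9 then had adjusted p = 0.0787, 0.0614 and 0.0573 by edgeR. Hoxc6 was also lost without control 2 (adjusted p = 0.0811 by edgeR) and without NP137 2 (adjusted p = 0.0743 by edgeR). DESeq2 called 14 Hox identifiers, 7 each way (37.2% of all genes), against 7 with edgeR (22.5%). The median log2 difference was 0.36 over the Hox genes tested and -0.06 over all genes.

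Between endothelial-like and fibroblast-like cells, 13 Hox identifiers were tested, with 6 higher in endothelium (22.1% of all genes were) and 3 lower (25.2% of all genes). Higher were Hoxd10 (log2 difference 5.41, SE 0.514, adjusted p = 9.28e-05 by edgeR), Hoxd9 (2.77, SE 0.404, adjusted p = 0.00144 by edgeR), Hoxb5 (2.14, SE 0.353, adjusted p = 0.00144 by edgeR), Hoxb8 (1.45, SE 0.263, adjusted p = 0.00242 by edgeR), Hoxb4 (1.09, SE 0.168, adjusted p = 0.00100 by edgeR) and Hoxd8 (0.63, SE 0.195, adjusted p = 0.0296 by edgeR). The fitted Hoxd10 size rests on 0 UMIs in 3 fibroblast-like libraries. Against 3 counts per library, Hoxd10 was at least 45.2-fold, 14.3-fold and 14.1-fold higher in endothelium in control 1, control 2 and NP137 1, and in NP137 2 it was 30.8-fold higher (17.0 to 56.4). Hoxd8 was lost without control 1 (adjusted p = 0.132 by edgeR), without NP137 1 (0.0904) and without NP137 2 (0.0631).

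Lower in endothelium were Hoxc6 (-5.83, SE 0.491, adjusted p = 3.52e-05 by edgeR), Hoxc8 (-4.91, SE 0.344, adjusted p = 1.31e-05 by edgeR) and Hoxb2 (-1.99, SE 0.162, adjusted p = 2.99e-05 by edgeR). Endothelial-like cells had 2, 0, 2 and 4 UMIs of Hoxc8 and 2, 0, 1 and 0 of Hoxc6. The Hoxb2 ratio was 0.365, 0.209, 0.285 and 0.349, so Hoxb2 was lower in 4 of 4 libraries by a like amount. DESeq2 called the same 9 Hox genes (41.3% of all genes), against the 47.3% of all genes that edgeR called. The median log2 difference was 0.76 over the Hox genes tested and -0.01 over all genes.

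Between keratinocyte-like and tumour cells, 19 Hox identifiers were tested, with 1 higher in keratinocyte-like cells (7.33% of all genes were) and 3 lower (7.36% of all genes). The higher gene was Hoxc13 (log2 difference 6.91, SE 0.689, adjusted p = 0.00770 by edgeR), with CPM ratios of 90.2 (30.1 to 444) in control 2 and 44.9 (16.6 to 170) in NP137 1. Against cells with a YFP UMI in place of the tumour clusters, a set that holds keratinocyte-like cells too, these ratios fell to 9.39 (6.23 to 14.6) and 8.55 (5.23 to 14.4). Lower were Hoxa3 (-1.70, SE 0.307, adjusted p = 0.0250 by edgeR), Hoxb7 (-1.26, SE 0.311, adjusted p = 0.0489 by edgeR) and Hoxb9 (-2.74, SE 0.668, adjusted p = 0.04998 by edgeR). Hoxc13 was called without each library in turn. Of the lower genes, none was called without control 1 or without NP137 1, Hoxb9 alone without control 2, and Hoxa3 alone without NP137 2. DESeq2 called 7 Hox genes (28.5% of all genes), against 4 with edgeR (14.7%). The median log2 difference was -1.11 over the Hox genes tested and -0.07 over all genes.

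NP137 and control were also compared in the other 3 classes, where edgeR's quasi-likelihood test called 0 of 19 Hox identifiers in fibroblast-like, 0 of 14 in endothelial-like and 0 of 14 in keratinocyte-like cells, and 0% of all genes in each. DESeq2 called 0 Hox genes in each class as well, and 0.0659, 0 and 0.105% of all genes. At an unadjusted p under 0.05, Hoxb2 alone passed in fibroblast-like cells (log2 difference 0.62, SE 0.242, adjusted p = 0.843 by edgeR), where 5.19% of all genes did, and 0 Hox genes passed in the endothelial-like and keratinocyte-like cells, where 8.15 and 5.89% of all genes did. In endothelial-like cells Hoxd8, Hoxd9, Hoxd10 and Hoxa3 lay below both controls in both NP137 libraries (25.2% of all genes did) and Hoxb2 and Hoxb7 above (18.1%). In keratinocyte-like cells Hoxa5 and Hoxc13 lay below (30.8% of all genes).

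The proteins of the PBX, MEIS and PKNOX families bind DNA together with HOX proteins. Of 9 such cofactor genes, 8 were tested between fibroblast-like and tumour cells, and 3 were higher in fibroblast-like cells: Meis3 (log2 difference 5.15), Pknox2 (5.47) and Meis1 (1.47), with a median of 0.97 over the list; 11.3% of all genes were higher there. Between endothelial-like and fibroblast-like cells 7 were tested, with Pbx3 higher (1.02) and 4 lower, among them Meis3, Meis1 and Meis2 (-5.71, -3.52 and -1.83), where 22.1% of all genes were higher and 25.2% lower. In tumour cells Meis2, the cofactor of smallest p there, was at 25.2, 32.2, 6.25 and 5.42 CPM (adjusted p = 0.0764 by edgeR). Both NP137 libraries lay below both controls, as for 40.6% of all genes tested in tumour cells. Between keratinocyte-like and tumour cells 0 of 6 were called.

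Of 43 other transcription factors of position, 21 were tested between fibroblast-like and tumour cells. There, 4 were higher, among them En1, which marks a lineage of dorsal dermal fibroblasts, Tbx15, of the dermis, and Msx1 (log2 differences 8.11, 6.80 and 6.04), where 11.3% of all genes were higher. Lhx2, a hair follicle stem cell factor, Pitx1 and Pax9 were lower (-3.12, -4.82 and -4.60), where 11.2% of all genes were, and the list's median was 1.76. Between endothelial-like and fibroblast-like cells 1 was higher and 10 lower of 13 tested (22.1 and 25.2% of all genes), with En1 (-6.67) and Tbx15 (-5.29) among the lower. Between keratinocyte-like and tumour cells 3 were higher and 2 lower of 19 (7.33 and 7.36% of all genes). Pitx1 in tumour cells was at 37.1, 4.38, 432 and 92.8 CPM.

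The 19 chromatin regulators listed are mostly of the Polycomb and Trithorax type, which hold Hox clusters off or on, with Ctcf and Dot1l beside them. Of the list, 0 were higher and 2 lower (Ezh2 and Suz12) in fibroblast-like against tumour cells, where 11.3% of all genes were higher and 11.2% lower. In endothelial-like against fibroblast-like cells 4 were higher and 1 lower of 16 tested (22.1 and 25.2% of all genes), and in keratinocyte-like against tumour cells 4 higher and 1 lower of 19 (7.33 and 7.36% of all genes). Of 7 RNAs transcribed within the Hox clusters, Hoxd3os1, of the Hoxd cluster, was higher in fibroblast-like than tumour cells (log2 difference 7.08) and Hotairm1, at the 3′ end of the Hoxa cluster, lower (-0.86), of 5 tested (11.3 and 11.2% of all genes). Hotairm1 was at 35.3, 59.4, 23.9 and 23.1 CPM in tumour cells, highest in control 2 like Hoxa3 and Hoxa5. In the other 2 class comparisons 0 of these RNAs were called, of 2 and 4 tested. Median log2 differences over all genes tested were near 0 in each of these comparisons (-0.06, -0.01 and -0.07). In the NP137 comparisons 0 genes of these 4 lists were called in any class, and their medians in tumour cells were -0.41 for cofactors, -1.03 for position factors, -0.28 for chromatin regulators and -0.31 for the RNAs.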

How the data were processed

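Gene by cell UMI counts of 4 libraries were deposited by the authors as filtered matrices, unnormalized. The file headers name 10x software 3.0.2, and Seurat 3.1.5 and mm10 are named in the submitters' processing notes; the labels name both V2 and V3 chemistry. No column of another sample was present (0 columns). The Hox genes and all lists were chosen with earlier results of these data known. Cells with at least 200 genes and at most 20% mitochondrial UMIs were kept, and doublets were removed with Scrublet in scanpy 1.11.5 (0.8% per 1000 barcodes; 378 to 2412 cells per library). Cells were clustered on 2000 variable genes without Hox genes (30 components, 15 neighbours, Leiden resolution 1). Tumour clusters had YFP in at least 50% of cells, and the others were named from marker lists. The libraries held 69517664 to 149021188 UMIs. Counts were summed per class and library (at least 20 cells) and tested with edgeR 4.0.16 (quasi-likelihood, TMM, filter on low counts, Benjamini-Hochberg adjustment, threshold 0.05, 2-sided), with DESeq2 1.42.0 in R 4.3.3 as an alternative. Scripts were tested on simulated data with genes set to log2 differences of 1, 2 and 4. The NP137 comparison recovered 0, 30.3 and 83.3% of these genes in tumour cells. In endothelial-like cells it recovered 7.69, 74.6 and 100%. Levels are counts per 1000000 UMIs of a class sum, and their intervals cover counting error only. Named with values are the 6 Hox genes of highest mean level per class, those called in a comparison, those above background in 1 library and at 0 in another, and those of groups 10 to 13 with at least 10 UMIs; the genes named in the comparisons by sex-linked transcripts and by tumour cluster were picked with the values in view. The alternatives tried were other scaling, filters, doublet handling, clustering, backgrounds and thinning, and leaving out each library; adding the unnamed fibroblast-marker clusters, the shares without thinning and the class ratios against cells with a YFP UMI were chosen after seeing the data. Some alleles and list genes are not reported here.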

Additional observations from a re-analysis of the deposited data

How the results depend on the processing

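The NP137 comparison of tumour cells, with 0 Hox genes called, gave 2 with DESeq2 and 2 with no filter on low counts (Hoxa5 and Hoxa7, lower), and 0 to 6 when each library was left out. In fibroblast-like cells it gave 1 with no filter (Hoxc10, lower). With a replicate block it gave 0 in each of the 4 classes, and 0 genes of any kind; same-numbered libraries had correlations of 0.0309, 0.152, -0.00789 and -0.0374 in tumour, fibroblast-like, endothelial-like and keratinocyte-like cells, and share only a number. The 7 calls of fibroblast-like against tumour cells became 14 with DESeq2, 11 with no filter, 11 with no doublets removed and 3 to 8 when leaving out a library. The 9 of endothelial-like against fibroblast-like cells became 17 with no filter and 8 to 11 when leaving out a library. The 4 of keratinocyte-like against tumour cells became 7 with DESeq2, 2 with DESeq2 size factors, 2 at Leiden resolution 2 and 1 to 2 when leaving out a library. The Hoxb share of tumour Hox UMIs was 53.9, 2.21, 84.9 and 77.9% as a mean over cells; 56.5, 1.54 and 90.6% in control 1, control 2 and NP137 1 with the macrophage-like level subtracted; and 86.5 and 75.6% in NP137 1 and NP137 2 with no doublets removed. Against neutrophil-like cells, 5 Hox genes stayed above background in endothelial-like cells of control 2 and 3 and 1 in keratinocyte-like cells of control 1 and control 2. Thinned to 1000 UMIs, 4.17, 0, 5.27 and 3.56% of tumour cells had a Hoxb9 UMI (26.8, 30.3 and 37.6% unthinned in control 1, NP137 1 and NP137 2), and 1.48 and 2.02% of endothelial-like cells a Hoxd10 UMI in control 1 and NP137 2 (14.97 and 8.63% unthinned in control 2 and NP137 2). Of the other alternatives' results, 112 kept their direction and side of the threshold or moved less than their error. For single genes 171 did, and 29 lost their call in the same direction; none reversed. The cause of these shifts was not tested. Depth limits the smaller class sums: 3 counts equal 2.04 and 1.92 CPM in fibroblast-like cells of control 2 and NP137 1, 2.83 and 2.30 CPM in keratinocyte-like cells of NP137 2 and control 1, and 2.46 and 2.23 CPM in endothelial-like cells of NP137 1 and control 1.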

Other observations

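Pericyte or smooth muscle-like cells, which wrap vessels, had the highest Hoxb2 level of any class described, at 90.7 CPM in control 1, 133 CPM in control 2, 98.4 CPM in NP137 1 and 149 CPM in NP137 2. Hoxa10 in them had 14, 0, 0 and 30 UMIs (11.5 CPM in control 1 and 7.77 CPM in NP137 2), and was thus seen in the libraries where fibroblast-like cells had it. Hoxc10 had 6 UMIs in control 1 and 0, 0 and 1 in the others.

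Unnamed clusters with fibroblast markers, led by Gzme and by Coch, showed Hoxa10 and Hoxc10 in control 1 too: Hoxa10 was at 12.5 CPM in the Gzme cluster and 10.9 CPM in the Coch cluster, and Hoxc10 at 8.06 and 10.9 CPM. In the Gzme cluster of NP137 1, Hoxc8 had 27 UMIs in the 568 cells with Xist alone (13.7 CPM) and 83 UMIs in the 303 cells with Y-linked transcripts alone (56.8 CPM), so Hoxc8 there was higher in the Y-linked kind, the opposite order from the tumour cells of this library. Hoxc10 had 6 and 0 UMIs in these kinds of cell. In the Coch cluster Hoxc8 was at 64.4 CPM in control 1, 63.7 CPM in control 2 and 23.7 CPM in NP137 1, and so was not low in control 2. In fibroblast-like cells of NP137 1, Hoxc8 was at 37.7 CPM with Xist (22.0 to 60.4) and 64.4 CPM with Y-linked transcripts (42.1 to 94.4), and the intervals overlap. In the Coch cluster of NP137 1, Hoxc8 had 10 UMIs in the 365 cells with Xist alone (16.5 CPM, 7.93 to 30.4). It had 0 UMIs in the 25 cells with Y-linked transcripts alone, with an interval up to 75.0 CPM. These are single-library values with no test.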
